A study of Mus musculus with 6 samples.

Results

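The 40 genes described here are interferon-stimulated genes of the mouse, taken by name from a written list. All 40 were among the 16627 genes of the count table, and all 40 passed the filter on low counts that left 16366 genes to test. They were measured by RNA sequencing of inguinal white adipose tissue (iWAT), a subcutaneous fat depot, from mice kept at 4 °C for 6 hours. One group of 3 libraries, here Celf1 AKO, came from animals whose adipocytes lack Celf1 (adipocyte-specific knockout), a protein that binds RNA and controls how mRNAs are spliced and degraded. The other group of 3, Flox control, came from Celf1 fl/fl mice, so both groups were cold-exposed and no library at room temperature was compared here. The study asked what Celf1 does in the beiging of this depot, that is, the gain of thermogenic fat cells during cold exposure. The labels used here give neither the Cre driver nor the age, sex or strain of the mice. They do not say that each library came from its own mouse, so p-values cover only the spread among libraries, which may be technical.

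Interferons are secreted proteins that cells make when they sense foreign or misplaced nucleic acid. Type I interferons act through the receptor Ifnar1/Ifnar2 and the kinases Jak1 and Tyk2 on a transcription factor complex that includes Stat2 and Irf9 and binds the interferon-stimulated response element (ISRE) in promoters. Interferon gamma acts through Ifngr1/Ifngr2, and its signal reaches promoters at the gamma-activated site (GAS). The genes switched on this way encode sensors of viral RNA, proteins that block translation or viral replication, and parts of the antigen-processing machinery. In fat, adipocytes, their progenitors, endothelial cells and macrophages can all respond, so a whole-tissue level sums over these cells.

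The promoters were examined first, since the ISRE is what many of these genes are known to share. RefSeq windows on GRCm38.p6, 250 bases before to 50 after a start site, were given for 29 of the 40 genes. The ISRE core was searched as GAAANNGAAA or, on the other strand, TTTCNNTTTC, and the GAS as TTCNNNGAA, which reads the same on both strands. A core was found for 18 of the 29 genes (62.1%), against 3.99% of the 27025 genes with such a window. A GAS was found for 9 of 29 (31.0%), against 9.55% of those genes. Both were found for 5 genes and neither for 7. A match to these letters is a description and not a shown binding site.

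One stretch is shown for members from 6 of the 7 roles below, upstream of the start site, 5′ to 3′ on the gene's own strand, with 15 bases on either side where they lie upstream. Capitals mark the ISRE core, and runs longer than 10 capitals are overlapping cores.
Stat2 at chr10:128270261-128270300, plus strand: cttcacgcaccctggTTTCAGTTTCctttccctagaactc
Isg15 at chr4:156200860-156200911, minus strand: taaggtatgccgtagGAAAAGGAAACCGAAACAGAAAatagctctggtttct
Ifit1 at chr19:34640770-34640828, plus strand: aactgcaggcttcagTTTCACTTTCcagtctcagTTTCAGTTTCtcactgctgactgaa
Ifit3 at chr19:34583358-34583431, plus strand: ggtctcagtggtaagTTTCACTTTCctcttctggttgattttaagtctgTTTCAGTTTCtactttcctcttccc
Ifit3b at chr19:34607754-34607827, plus strand: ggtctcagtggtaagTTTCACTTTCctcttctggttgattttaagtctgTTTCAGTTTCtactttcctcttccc
Oas1a at chr5:120907526-120907560, minus strand: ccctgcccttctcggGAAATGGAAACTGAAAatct
Igtp at chr11:58199507-58199546, plus strand: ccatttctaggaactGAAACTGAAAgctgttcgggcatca
Bst2 at chr8:71537572-71537617, minus strand: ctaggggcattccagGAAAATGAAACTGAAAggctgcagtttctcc
Isg15 held 3 overlapping cores, and Oas1a and Bst2 held 2 each. The stretches of Ifit3 and Ifit3b, neighbouring genes, were the same over all 74 bases, with 2 separate cores. The antigen-processing genes Psmb8, Psmb9 and Tap1 had no core in their windows.

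**Figure D1:**
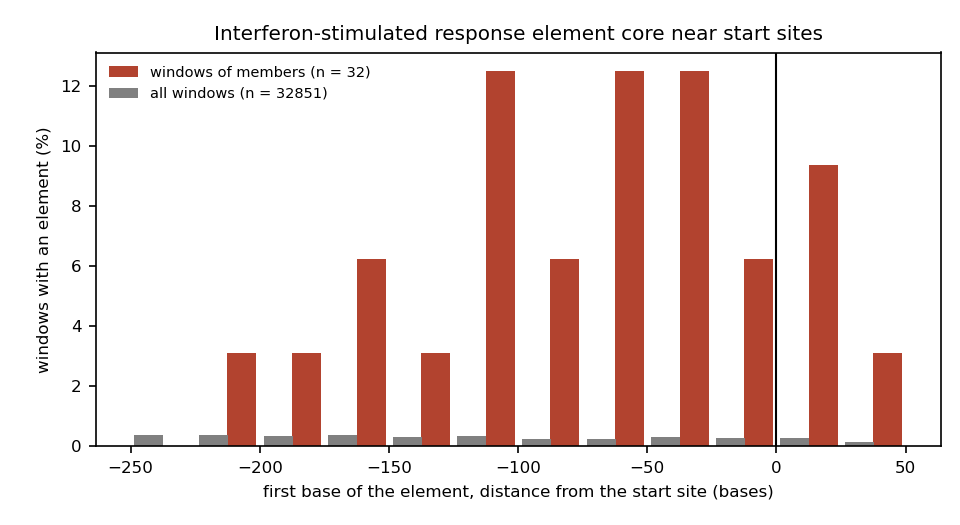
Share of promoter windows (%) with an ISRE core whose first base lies in each 25-base bin, by distance from the start site in bases, for the 32 windows of the 29 genes and for all 32851 windows. In the interferon-stimulated genes the cores lie on both sides of the start site, with 12.5% of windows in each of 3 bins upstream, while the highest bin over all windows is at 0.377%.

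Several of the genes are also neighbours. On GRCm38, 17 of the 40 lay in 6 clusters with gaps of at most 100 kb. Ifit2, Ifit3, Ifit3b and Ifit1 lay together at 34550694 to 34650009 on chromosome 19, and Gbp7, Gbp3 and Gbp2 at 142530342 to 142638008 on chromosome 3. Psmb9, Tap1 and Psmb8 lay at 34181987 to 34201454 on chromosome 17, within the major histocompatibility complex. Parp14, Dtx3l and Parp9 formed a cluster on chromosome 16, as did Mx1 and Mx2, and Oas2 and Oas3 one on chromosome 5.

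Library totals ran from 54835348 to 64979443 counts, so 1 CPM (counts scaled to library size and by edgeR's TMM factors) stood for 54.9 to 67.8 counts. Celf1 itself (ENSMUSG00000005506; chromosome 2, 90940382 to 91019497) stood at 52.5, 49.8 and 63.0 CPM under the knockout label against 125.5, 114 and 144 CPM under the control label. The groups did not overlap, and the knockout mean was 43.1% of the control mean in tissue that also holds other, undeleted cells. This log2 fold change of -1.21 (SE 0.14) missed the threshold with edgeR (adjusted p = 0.122 by the quasi-likelihood test) and passed it with DESeq2 (adjusted p = 1.23e-09). Adipoq, an adipocyte marker, was high throughout, with a mean level (± SD, n = 3 per group) of 2704 ± 102 CPM in the knockout and 2485 ± 70.8 CPM in the control libraries. Of the 8 adipocyte markers listed, 2 had a positive and 6 a negative log2 fold change, from -1.71 to 0.12 with a median of -0.07. By edgeR 0 of the 8 were called.

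The interferon-stimulated genes were expressed in every library, the lowest single value being 73 counts. Per length, their median level was 5.58 FPKM (fragments scaled to gene length and library size), against 3.96 FPKM for all genes tested. Ifi27, which encodes a small mitochondrial and membrane protein, was the most abundant at 458 ± 104 FPKM (SD over the 6 libraries). After it came Bst2, the tetherin that holds budding virions on the cell surface, at 48.3 ± 6.32 FPKM, and Samhd1, a nucleotide triphosphohydrolase that starves viruses of nucleotides, at 41.8 ± 8.82 FPKM. Bst2 and Samhd1 differed by less than their spread. At the other end Mx1, Ifi44 and Oas3 were at 0.79 ± 0.60, 0.92 ± 0.19 and 0.93 ± 0.32 FPKM and could not be ordered beyond their spread. In all, 11 of the 40 genes had a mean of at least 10 FPKM and 3 a mean under 1 FPKM.

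The comparison of genotypes found no interferon-stimulated gene that differed by the test. By edgeR's quasi-likelihood test, with Benjamini-Hochberg adjustment over all genes, 0 of the 40 were higher and 0 lower in Celf1 AKO at an adjusted p under 0.05. Over all genes tested, the same rule called 0.0122% higher and 0% lower. At an unadjusted p under 0.05 edgeR gave 0 of the 40, against 12.9% of all genes. DESeq2 called 0 of the 40 as well, against 2.97% of all genes. The smallest edgeR adjusted p among the 40 was 0.454, for Bst2.

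Of the 40, 13 had a positive and 27 a negative log2 fold change, with a median of -0.11 against -0.02 over all genes tested. Values ran from -0.44 for Parp14 to 0.64 for Mx2. All 3 Celf1 AKO libraries lay above all 3 controls for 0 of the 40, against 7.81% of all genes, and below them for 2 of the 40, Ifi35 and Bst2, against 9.51% of all genes. The 95% interval of the log2 fold change covered 0 for all 40 genes and stayed within a 2-fold change in either direction for 32. For the other 8, Ifit3, Ifit3b, Oas2, Mx1, Mx2, Iigp1, Rsad2 and Psmb9, a change of 2-fold in at least 1 direction lay within the interval.

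**Figure D2:**
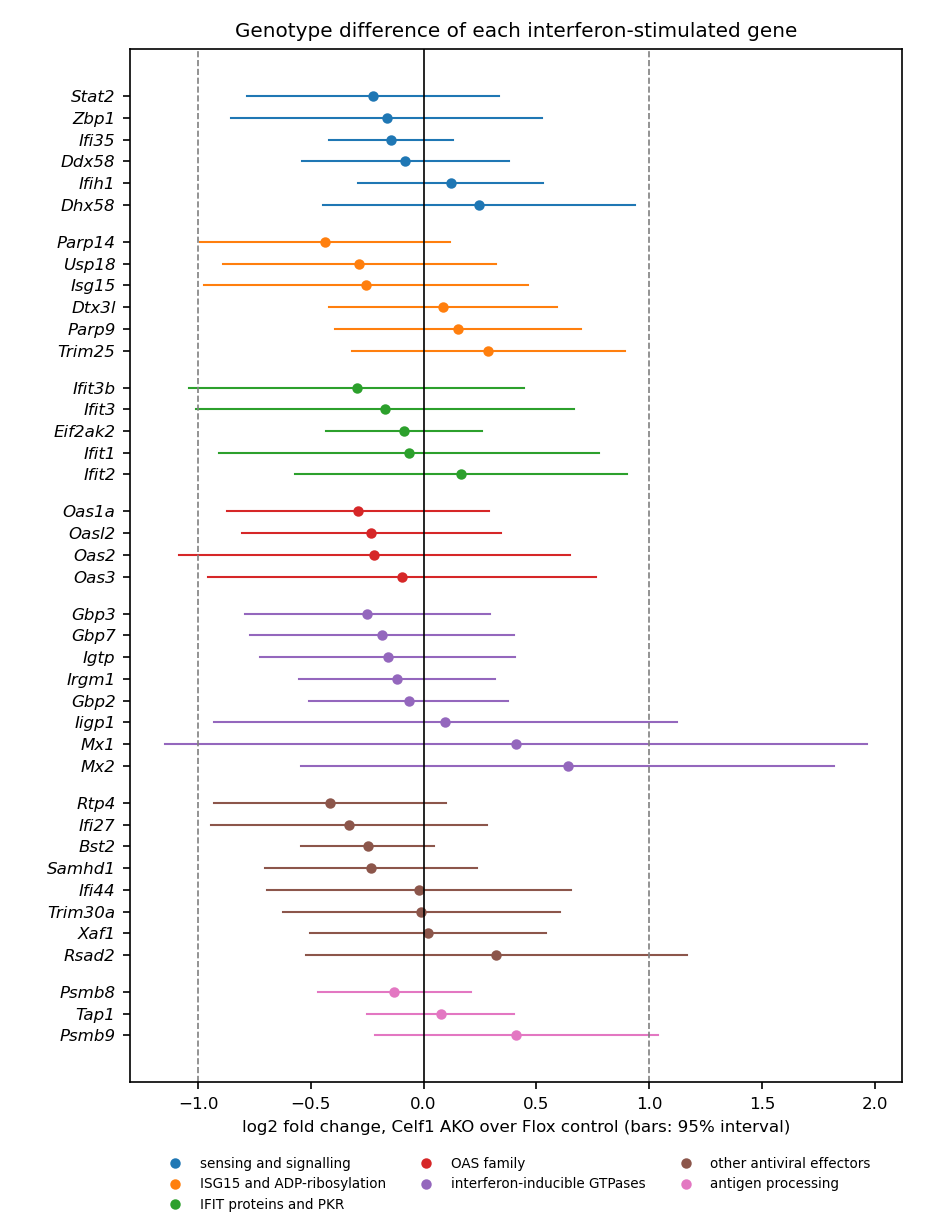
Log2 fold change of Celf1 AKO over Flox control for each of the 40 genes by edgeR, grouped by role (colours), with 95% intervals as bars and dashed lines at a 2-fold change. Every interval crosses 0, and those of Mx1 and Mx2 are the widest, reaching 1.97 and 1.82.

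The sensing and signalling genes were Stat2, the RNA helicases Ddx58 (RIG-I), Ifih1 (MDA5) and Dhx58 (LGP2), the Z-nucleic acid sensor Zbp1, and Ifi35, an interferon-induced leucine zipper protein. Stat2 was at 34.7, 17.6 and 26.7 CPM in Celf1 AKO libraries 1 to 3 and at 26.4, 34.1 and 31.9 CPM in Flox control libraries 1 to 3 (log2 fold change -0.23, SE 0.24, edgeR adjusted p = 0.717). The Stat2 groups overlapped, with the highest and the lowest library both in Celf1 AKO. Ifi35 was at 18.0, 16.9 and 18.1 CPM against 20.8, 19.2 and 18.5 CPM, so that its groups did not overlap. Its log2 fold change was only -0.14 (SE 0.12, edgeR adjusted p = 0.637). Zbp1 and Ddx58 had log2 fold changes of -0.16 and -0.08, and Ifih1 and Dhx58 of 0.12 and 0.25. In each of these 4 genes the highest library was Celf1 AKO 1.

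The second group holds genes that act in the attachment or removal of ISG15, or in the attachment of ADP-ribose to proteins. Isg15 is the ubiquitin-like modifier itself, Usp18 removes it and also restrains receptor signalling, and Trim25 is a ubiquitin and ISG15 ligase of the RIG-I pathway. Parp14 and Parp9 are ADP-ribosyltransferases, and Dtx3l is the ubiquitin ligase that pairs with Parp9. Trim25 was the most abundant, at 174, 104 and 110.5 CPM in Celf1 AKO and 142, 88.2 and 88.4 CPM in Flox control (log2 fold change 0.29, SE 0.26, edgeR adjusted p = 0.668). Replicate 1 was the high library of both groups. Parp14 was at 31.4, 17.6 and 28.0 CPM against 27.6, 35.8 and 40.8 CPM (log2 fold change -0.44, SE 0.24, edgeR adjusted p = 0.476). Here Celf1 AKO 1 and 3 lay within the range of the controls and Celf1 AKO 2 below it. Isg15, named although outside the rule for naming genes, was at 9.74, 5.65 and 7.13 CPM against 12.4, 6.17 and 8.31 CPM (log2 fold change -0.26, SE 0.31).

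Parp9 was at 49.8, 54.1 and 28.0 CPM in Celf1 AKO and 36.6, 43.2 and 38.9 CPM in Flox control (log2 fold change 0.15, SE 0.23, edgeR adjusted p = 0.817). Celf1 AKO 3 was the lowest library and the other 2 knockout libraries the highest. Without Celf1 AKO 3 the adjusted p of Parp9 was 0.108, the smallest of any of the 40 genes in any of the 18 alternative fits, where that fit called 3.19% of all genes. Dtx3l, on the opposite strand, had the same order of Celf1 AKO libraries, at 21.7, 24.9 and 15.9 CPM. The 2 genes overlap by 682 bases, and since the strand setting is not given in the sources used here, reads in the shared stretch cannot be told apart.

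The IFIT proteins bind viral RNA and block its translation, and PKR, the product of Eif2ak2, is the kinase that halts translation on double-stranded RNA. Ifit3 was at 31.3, 13.7 and 14.5 CPM in Celf1 AKO and 30.6, 17.8 and 18.6 CPM in Flox control (log2 fold change -0.17, SE 0.36, edgeR adjusted p = 0.875). Replicate 1 of each group was about level, and the other 2 knockout libraries lay below the other 2 controls. Ifit2 was at 34.2, 14.7 and 15.6 CPM against 19.8, 18.1 and 19.6 CPM (log2 fold change 0.16, SE 0.32, edgeR adjusted p = 0.860). For Ifit2 the 3 controls lay close together, with 1 knockout library well above them and 2 below. Ifit3b was at 6.21, 3.41 and 3.66 CPM against 7.27, 4.90 and 4.13 CPM (log2 fold change -0.30, SE 0.32, edgeR adjusted p = 0.720). Transcripts of Ifit3 and Ifit3b were 97.8% identical over 1700 bases, so counting could split their reads and each value is uncertain. Ifit1 and Eif2ak2 had log2 fold changes of -0.06 and -0.09.

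The OAS enzymes make 2′-5′-linked oligoadenylates on double-stranded RNA, and Oasl2 is an OAS-like protein. All 4 had negative log2 fold changes, from -0.29 to -0.10 with a median of -0.23. Oasl2 was at 32.9, 16.8 and 24.0 CPM in Celf1 AKO and 26.5, 25.5 and 34.4 CPM in Flox control (log2 fold change -0.23, SE 0.25, edgeR adjusted p = 0.718). Oas1a was at 9.55, 5.55 and 6.90 CPM against 9.95, 7.13 and 9.84 CPM (log2 fold change -0.29, SE 0.25, edgeR adjusted p = 0.650). In all 4 genes Celf1 AKO 2 was the lowest library, and the groups overlapped in each. Oas1a shared 97.6% of 1861 aligned bases with the transcript of Oas1g, so its reads too could be split.

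The interferon-inducible GTPases comprise the Mx proteins, which block viral nucleocapsids, the guanylate-binding proteins Gbp2, Gbp3 and Gbp7, and the immunity-related GTPases Igtp, Irgm1 and Iigp1, which act on the vacuoles of intracellular pathogens. Gbp2 was at 50.8, 38.9 and 38.2 CPM in Celf1 AKO and 55.5, 42.9 and 35.7 CPM in Flox control (log2 fold change -0.07, SE 0.19, edgeR adjusted p = 0.911). Iigp1 was at 48.6, 15.0 and 17.2 CPM against 32.3, 22.1 and 21.2 CPM (log2 fold change 0.10, SE 0.44, edgeR adjusted p = 0.946). Celf1 AKO 1 stood at 3.24 times Celf1 AKO 2 for Iigp1, while the means of the groups were near each other. Mx2 was at 8.08, 3.55 and 2.18 CPM against 4.36, 2.15 and 2.36 CPM (log2 fold change 0.64, SE 0.51, edgeR adjusted p = 0.620). The gene annotation lists Mx2 as a polymorphic pseudogene, and the strain of these mice is not given.

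Mx1, chosen after its values were seen, had the widest spread of the 40. It was at 6.52, 1.2 and 1.51 CPM in Celf1 AKO and 3.40, 1.40 and 2.13 CPM in Flox control (log2 fold change 0.41, SE 0.67, edgeR adjusted p = 0.828). The 3 knockout libraries spanned a factor of 5.45 and the 3 controls a factor of 2.42. Mx1 and Mx2 transcripts were 96.1% identical over 646 bases, so the 2 genes are uncertain one by one. Igtp overlaps Irgm2 on the same strand over 7974 bases, and a stretch of 637 bases of Gbp7 is identical to Gm43802, which was not analysed here.

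The other antiviral effectors act at several steps of infection. Bst2 was at 36.5, 35.8 and 29.1 CPM in Celf1 AKO and 40.6, 42.8 and 37.0 CPM in Flox control, and the groups did not overlap. Its log2 fold change was -0.25 (SE 0.13, edgeR adjusted p = 0.454), and the gap between the nearest libraries of the 2 groups was small beside the spread within Celf1 AKO. Ifi27 was at 473, 477 and 248 CPM against 589, 490.2 and 427 CPM (log2 fold change -0.33, SE 0.26, edgeR adjusted p = 0.620). Its low value came from Celf1 AKO 3. Rsad2, the radical SAM enzyme viperin, and Rtp4 lay at opposite ends of this group with log2 fold changes of 0.32 and -0.42, and both missed the test (edgeR adjusted p = 0.732 and 0.467). Samhd1 had a log2 fold change of -0.24, and Trim30a, Xaf1 and Ifi44 of -0.01, 0.02 and -0.02.

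Psmb8 and Psmb9 are catalytic subunits of the immunoproteasome, and Tap1 is part of the transporter that carries peptides into the endoplasmic reticulum. Psmb8 was at 32.5, 25.4 and 28.2 CPM in Celf1 AKO and 36.0, 30.5 and 27.7 CPM in Flox control (log2 fold change -0.13, SE 0.15, edgeR adjusted p = 0.734). Tap1 was at 28.8, 22.1 and 23.5 CPM against 22.2, 25.7 and 22.6 CPM (log2 fold change 0.08, SE 0.14, edgeR adjusted p = 0.852). Psmb9 was at 20.5, 14.5 and 10.1 CPM against 11.9, 12.8 and 9.17 CPM (log2 fold change 0.41, SE 0.27, edgeR adjusted p = 0.551). For Psmb9, 2 knockout libraries lay above all controls and the third among them. Psmb9 and Tap1 run in opposite directions from a shared start region and overlap by 212 bases.

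**Figure D3:**
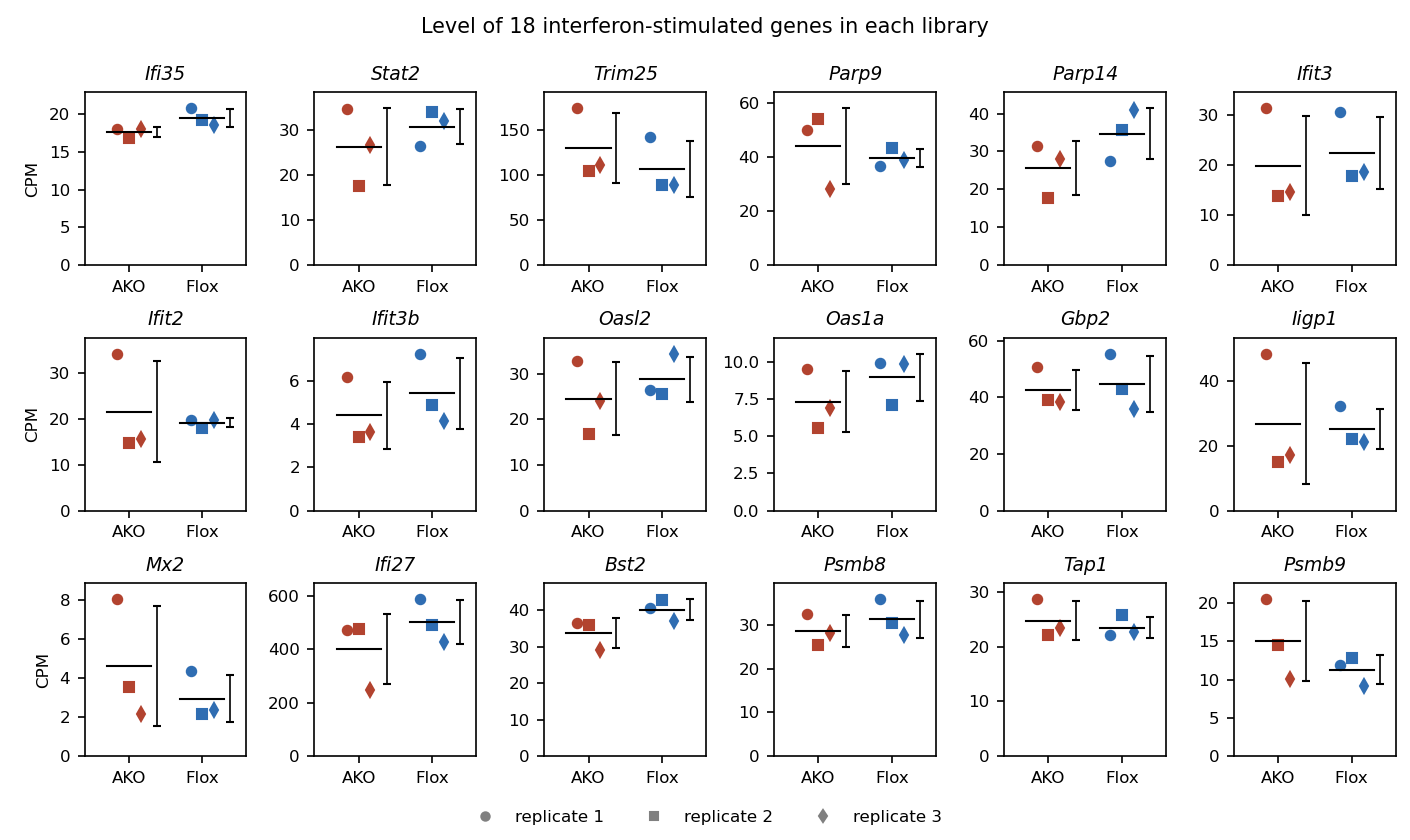
CPM of 18 interferon-stimulated genes in each library, with Celf1 AKO in red and Flox control in blue, replicate number as symbol, group means as horizontal lines and SD (n = 3) as bars. The genes are the 2 most abundant and the one of smallest p in each role, and in most panels the circle of Celf1 AKO replicate 1 lies above the other 2 knockout libraries, as for Iigp1 at 48.6 CPM against 15.0 and 17.2 CPM.

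The 3 Celf1 AKO libraries did not share 1 interferon-stimulated level. Celf1 AKO 1 was the highest of all 6 libraries for 26 of the 40 genes (65%), where it was the highest for 18.6% of all genes tested, and it was the lowest for 0. Celf1 AKO 2 was the lowest for 22 of the 40 (55%), against 23.4% of all genes, and Celf1 AKO 3 for 13 (32.5%), against 17.2%. Among the 3 knockout libraries, Celf1 AKO 1 was the highest for 36 of the 40, against 29.4% of all genes. The 4 exceptions were Ifi35, Ifi27, Parp9 and Dtx3l. Celf1 AKO 1 lay above all 3 controls for 27 of the 40, against 32.2% of all genes, while Celf1 AKO 2 and 3 both lay below all 3 controls for 22 of the 40, against 13.7% of all genes. For 16 genes both held at once, against 1.82% of all genes: Ifit1, Ifit2, Ifit3, Eif2ak2, Ifih1, Ddx58, Zbp1, Usp18, Gbp3, Gbp7, Igtp, Irgm1, Iigp1, Xaf1, Trim30a and Samhd1.

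Averaged over the 40 genes, the level was 0.38 log2 units above the control mean in Celf1 AKO 1, and 0.35 and 0.33 log2 units below it in Celf1 AKO 2 and 3, values of -0.35 and -0.33. The 3 Flox control libraries stood at 0.08, -0.07 and -0.01. The median over genes of the SD of log2 CPM was 0.46 in Celf1 AKO and 0.20 in Flox control, where all genes tested had medians of 0.22 and 0.17. The SD was larger in Celf1 AKO for 36 of the 40, against 62.6% of all genes. Celf1 AKO 1 exceeded the mean of the other 2 knockout libraries by a median of 0.69 log2 units, from 0.04 to 1.93. Because genes of 1 library share its RNA, these counts describe 3 libraries and carry no p.

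**Figure D4:**
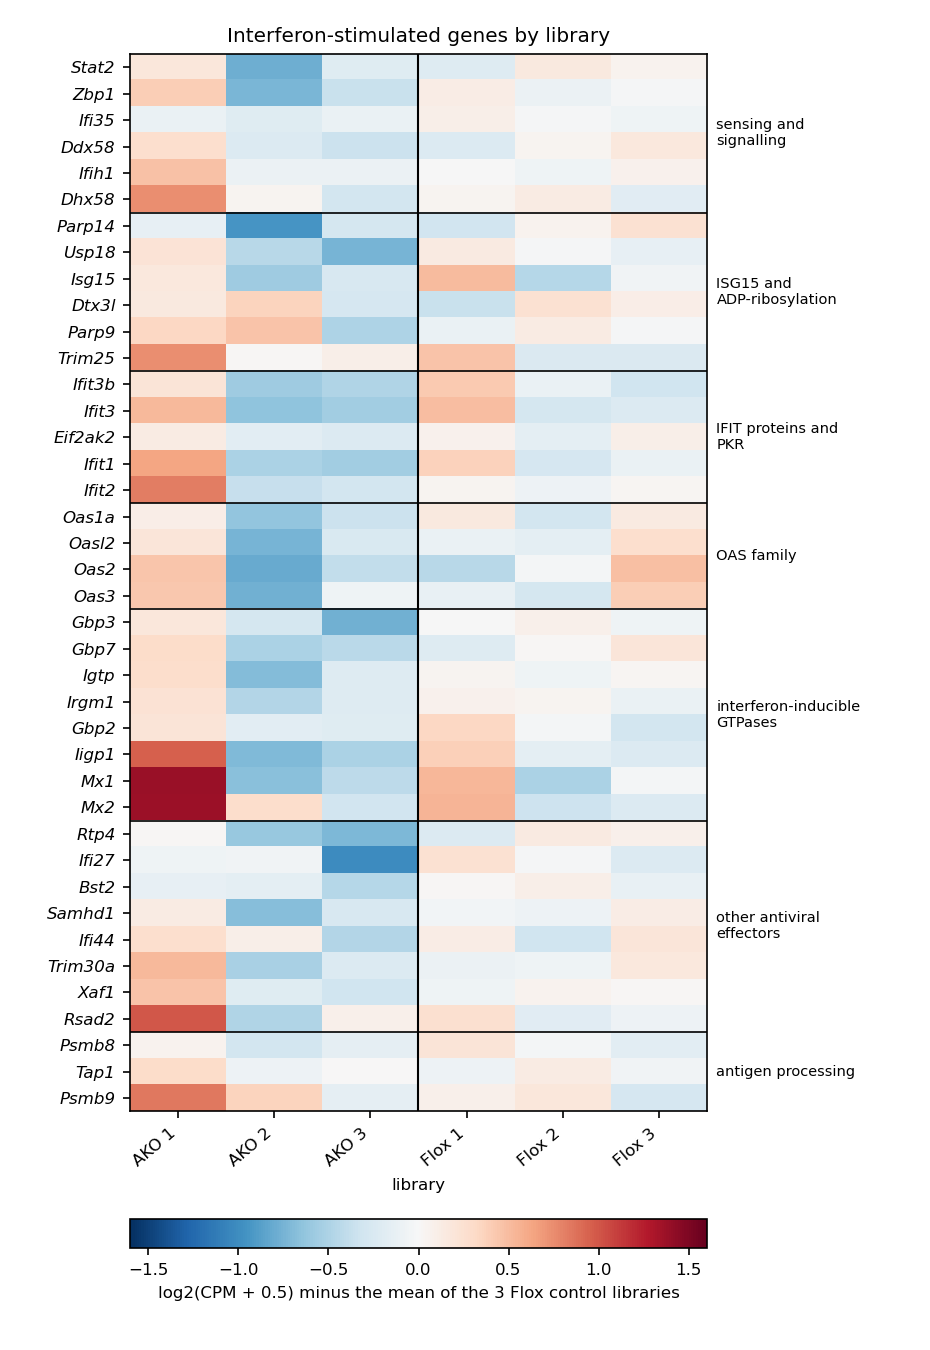
Level of each of the 40 genes (rows, by role) in each library (columns), as log2(CPM + 0.5) minus the mean of the 3 Flox control libraries, with red above and blue below that mean. The column of Celf1 AKO 1 is mostly red and those of Celf1 AKO 2 and 3 mostly blue, and Mx1 and Mx2 in Celf1 AKO 1 are the darkest cells.

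In each role the knockout libraries were split, with Celf1 AKO 1 above the other 2. Log2 units from the control mean are given for Celf1 AKO 1 to 3, with the Flox control range in brackets. The GTPases stood at 0.61, -0.40 and -0.38 (-0.12 to 0.21), and the IFIT and PKR genes at 0.46, -0.45 and -0.42 (-0.18 to 0.28). The OAS family stood at 0.29, -0.74 and -0.26 (-0.19 to 0.32), so Celf1 AKO 1 did not exceed every control. The antigen-processing genes showed this split least, at 0.40, -0.01 and -0.09 (-0.17 to 0.09), with Celf1 AKO 2 and 3 within the control range. Fold changes between the groups depended on Celf1 AKO 1 accordingly. Without that library 36 of the 40 log2 fold changes were negative with a median of -0.37, and edgeR still called 0 of the 40 (smallest adjusted p 0.359, for Rtp4). Without Celf1 AKO 2 or without Celf1 AKO 3, 21 of the 40 were negative, with medians of -0.01 and -0.03.

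Genes with and without an ISRE core near the start site shared this pattern. Of the 18 with a core, 16 had a negative log2 fold change (median -0.14) and 13 were highest in Celf1 AKO 1 (72.2%). Of the 11 without one, 5 were negative (median 0.02) and 7 were highest in Celf1 AKO 1 (63.6%). Among the 447 tested genes with a core, 27.1% were highest in Celf1 AKO 1, and among the 11119 without one 18.0% were. These are descriptions of the same 6 libraries, and the difference between genes with and without a core was not tested.

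Cell type markers also differed between the knockout libraries. All 12 macrophage markers were tested, none at 0, and their summed level was 1952, 679 and 1331 CPM in Celf1 AKO 1 to 3 and 1246 to 1734 CPM in Flox control. Their mean level stood at 0.42, -1.14 and -0.01 log2 units from the control mean, so Celf1 AKO 1 was the highest and Celf1 AKO 2 the lowest, as for the interferon-stimulated genes, but Celf1 AKO 3 was level with the controls. The 8 preadipocyte and fibroblast markers, none at 0, stood at 0.36, -0.47 and -0.27, with sums of 4021, 2492 and 2857 CPM against 3002 to 3662 CPM in Flox control. The 8 adipocyte markers, none at 0, stood at -0.53, -0.11 and -0.12, but at -0.21, -0.01 and 0.08 without Lep, a choice made after seeing the data. Their sums were 44714, 51110.4 and 55869 CPM against 49706 to 56469 CPM in Flox control. The 11 T and NK cell markers stood at 0.38, -0.44 and 0.34, with sums of 8.69 to 21.4 CPM in Celf1 AKO and 13.8 to 16.8 CPM in Flox control.

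The endothelial, B cell and neutrophil markers had another order of the knockout libraries. The 10 endothelial markers stood at 0.51, 0.66 and 0.67, against -0.34 to 0.30 in Flox control, with sums of 1080, 1258 and 1245 CPM against 619 to 917 CPM. Of these, 9 had positive log2 fold changes and 6 were higher in all 3 knockout libraries, against 7.81% of all genes. None passed by edgeR, with 7 at an unadjusted p under 0.05, against 12.9% of all genes. DESeq2 called Kdr, Cldn5 and Esam higher, where it called 2.97% of all genes in either direction. Ighm, the only B cell marker tested, was at 63.2, 115 and 67.7 CPM against 18.2, 28.5 and 35.5 CPM (edgeR adjusted p = 0.227, DESeq2 adjusted p = 0.000215). The 7 tested neutrophil markers stood at 0.65, 1.3 and 3.08, against -0.75 to 0.73 in Flox control, with Ngp at 0 in 2 controls. Their sums were 17.2, 28.7 and 126 CPM against 3.55 to 18.9 CPM, with Flox control 2 above Celf1 AKO 1. Plasmacytoid dendritic cells are the chief makers of type I interferon. Their 4 tested markers stood at 0.28, -0.20 and -0.09, with sums of 152, 130.0 and 125 CPM against 122 to 134 CPM. By mean level Celf1 AKO 1 was the highest and Celf1 AKO 2 the lowest, as for the macrophage markers, though near Flox control 1 at -0.18. These 4 did not move as one: Siglech was at 1.69, 0.47 and 0.63 CPM against 0.46, 0.83 and 0.99 CPM, Tcf4 was higher and Bst2 lower in all 3 knockout libraries, and Irf8 overlapped. The part of these cell types in the levels of the interferon-stimulated genes was not tested. In whole tissue, fewer cells of a type and less RNA per cell cannot be told apart.

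**Figure D5:**
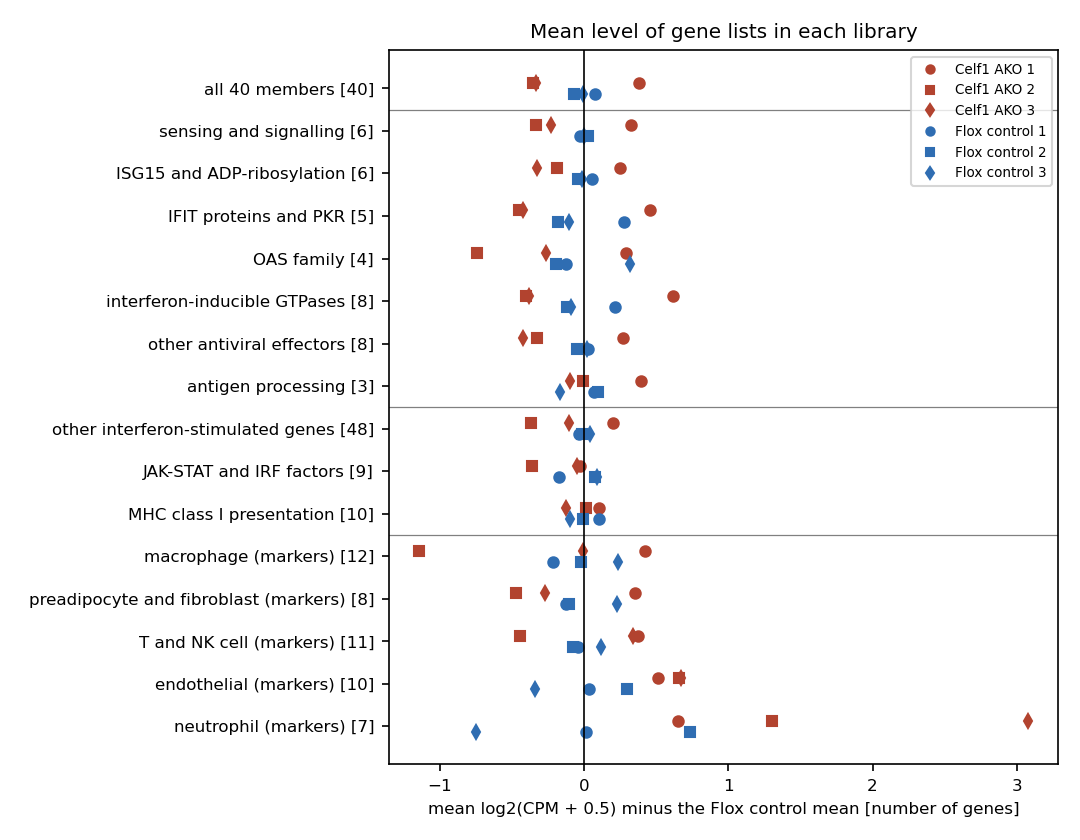
Mean level of gene lists in each library, as log2(CPM + 0.5) minus the Flox control mean, with the number of genes in brackets; Celf1 AKO is red, Flox control blue, and symbols are replicates. Celf1 AKO 1 is to the right of 0 in every role of the 40 genes, as it is for the macrophage (0.42) and preadipocyte (0.36) markers. In Celf1 AKO 3 the 40 genes stand at -0.33 and the 48 other interferon-stimulated genes at -0.10. The macrophage markers stand there at -0.01 and the preadipocyte markers at -0.27.

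The rest of the pathway was read from lists of its other genes, in which edgeR called 0 genes in either direction. Of the interferons and their receptors, 5 of 10 were tested, and Ifnb1, Ifna4, Ifne, Ifng and Ifnlr1 were not analysed here. Of those 5, 4 had negative log2 fold changes. Ifnar1, a chain of the type I receptor, was at 35.1, 29.4 and 34.7 CPM in Celf1 AKO and 38.8, 44.0 and 43.4 CPM in Flox control (log2 fold change -0.35, SE 0.12, edgeR adjusted p = 0.315). Ifngr2, a chain of the interferon gamma receptor, was at 21.1, 17.2 and 26.8 CPM against 27.5, 29.1 and 32.4 CPM (log2 fold change -0.45, SE 0.17, edgeR adjusted p = 0.347). In both genes all 3 knockout libraries lay below all 3 controls, and Celf1 AKO 1 was not the outlying library that it was for most of the 40 genes. Il10rb, a chain of the lambda interferon receptor, had a log2 fold change of -0.31 (edgeR adjusted p = 0.468).

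Of the 9 kinases and transcription factors of the JAK-STAT and IRF list, 3 were positive and 6 negative (median -0.17). The 3 of smallest p were Irf1, Irf9 and Irf3, with log2 fold changes of -0.48, -0.29 and -0.30 and edgeR adjusted p-values of 0.425, 0.484 and 0.496. Of the 9 tested nucleic acid sensors and adaptors, 8 were negative (median -0.16). Mavs, the mitochondrial adaptor of the RNA helicases, was at 34.6, 36.1 and 54.7 CPM in Celf1 AKO and 62.6, 68.4 and 84.0 CPM in Flox control (log2 fold change -0.78, SE 0.20, edgeR adjusted p = 0.258). Ticam1, the adaptor of Toll-like receptor 3, was at 10.1, 11.2 and 11 CPM against 16.1, 14.1 and 13.8 CPM (log2 fold change -0.45, SE 0.14, edgeR adjusted p = 0.301). Both were lower in all 3 knockout libraries. Mavs was called lower by DESeq2 on all 6 libraries (adjusted p = 0.0395) and by edgeR without Celf1 AKO 3 (adjusted p = 0.0281), and Ticam1 by neither. Tbk1, the kinase downstream of both, had a log2 fold change of 0.15 (edgeR adjusted p = 0.634).

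Of the 6 feedback inhibitors, 3 were positive and 3 negative. Socs3, which blocks Janus kinases, was at 51.4, 38.6 and 14.0 CPM in Celf1 AKO and 12.4, 21.5 and 14.6 CPM in Flox control (log2 fold change 1.1, SE 0.44, edgeR adjusted p = 0.362). The first 2 knockout libraries lay above all controls and Celf1 AKO 3 among them, and Socs3 was called when Celf1 AKO 3 was left out (edgeR adjusted p = 0.0367) but not by DESeq2 on all 6 libraries (adjusted p = 0.144). The phosphatases Ptpn2 and Ptpn6 had log2 fold changes of 0.60 and -1.07 (edgeR adjusted p = 0.323 and 0.484). Of 10 genes of MHC class I presentation, 3 were positive and 7 negative (median -0.05). Psme2, a subunit of the proteasome activator, was at 79.3, 79.0 and 66.8 CPM against 99.2, 86.0 and 84.5 CPM, lower in all 3 knockout libraries (log2 fold change -0.26, edgeR adjusted p = 0.408). Tap2, the partner of Tap1, and Psme1, the partner of Psme2, had log2 fold changes of 0.44 and -0.12 (edgeR adjusted p = 0.451 and 0.707).

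A further 48 interferon-stimulated genes outside the 40 were tested, with 17 positive and 31 negative (median -0.07). Among those of smallest p were Ube2l6, the ISG15-conjugating enzyme, and Slfn5, with log2 fold changes of 0.38 and 0.35 and edgeR adjusted p-values of 0.348 and 0.385. Ifitm1, which blocks viral entry, was the only one of the 48 whose groups did not overlap, at 2.46, 2.01 and 5.16 CPM in Celf1 AKO and 1.99, 1.87 and 1.44 CPM in Flox control (log2 fold change 0.86, edgeR adjusted p = 0.403). Averaged over these 48, the level stood at 0.20, -0.36 and -0.10 log2 units from the control mean in Celf1 AKO 1 to 3. Celf1 AKO 1 was the highest library for 25 of the 48, against 18.6% of all genes, and Celf1 AKO 2 the lowest for 27, against 23.4%.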

How the data were processed

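The deposited tables hold raw counts by Ensembl identifier for the 6 libraries and, per the file headers, the FPKM values that the authors made for the same genes; FPKM served for levels between genes and for alternative fits. HISAT2, RSEM 1.3.1, GRCm38 and mm10 are named in the submitters' processing notes without roles; annotation and strand setting are not given in the sources used. Symbols matched for 16522 identifiers and not for 105. Counts were tested with edgeR 4.0.16 (quasi-likelihood, TMM, default filter, robust; R 4.3.3) on genotype alone, and 261 genes were removed by the filter. SE is the fold change over the root of F, and intervals use the test's degrees of freedom. Levels per library are log2(CPM + 0.5). No 2 libraries agreed within sampling noise. The script was tested on simulated counts.

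The members, lists and tests were chosen with earlier results of these data known. The values of every library are given, per role, for the 2 genes of highest mean FPKM and the gene of smallest p, for any gene called, and, per pathway list, for the 3 of smallest p; genes whose groups do not overlap are named. A gene that this rule takes is not reported here. Positions are from GENCODE M21 (GRCm38). A comparison of protein sequences had been planned; transcripts were compared instead with blastn 2.17.0 (at least 95% identity over 500 bases), chosen after seeing the files. Alternatives were DESeq2 1.42.0, limma 3.58.1 on counts and on log2(FPKM + 1) and log2(FPKM + 0.1), other normalizations and filters, a replicate block, and leaving out each library.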

Additional observations from a re-analysis of the deposited data

How the results depend on the processing

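Across the 18 alternatives, 0 of the 40 interferon-stimulated genes were called, with a smallest adjusted p of 0.108, and 17 of the 40 kept the sign of their log2 fold change in all 18. The median of the 40 ran from -0.15 to -0.08 with other normalizations, filters, tools and the FPKM fits, and from -0.37 to -0.01 with 1 library left out. The log2(FPKM) fits with a filter of 1 FPKM in 3 libraries held fewer of the 40. Over all genes, the 2 called higher became 0 with library totals only, limma-voom, log2(FPKM + 1) and log2(FPKM + 0.1), 1 with log2(FPKM + 1) without a filter, 6 with limma-voom and quality weights, 344 with DESeq2 and 0 to 237 with 1 library left out. The 0 called lower became 4 with quality weights, 150 with DESeq2 and 0 to 290 with 1 library left out, the highest in both cases without Celf1 AKO 3. The Celf1 log2 fold change was called at -1.19 by DESeq2 and -1.25 with quality weights, and ran from -1.32 (called, without Celf1 AKO 3) to -1.12 with 1 library left out. Without Celf1 AKO 3, 1 feedback inhibitor (Socs3) and 1 sensor or adaptor (Mavs) were called, and 0 without any other library. These lists were also read in both limma-voom fits, in DESeq2 and with the replicate block, a choice made after seeing the data, and DESeq2 alone called any gene, 1 sensor or adaptor (Mavs). With the replicate block, 9 genes were called higher and 3 lower, 0 of the 40 among them, Celf1 was called at -1.21, and Xaf1 and Iigp1 had -0.024 and -0.089. Whether the replicate numbers pair the libraries was not settled. Deviations of same-numbered libraries correlated at 0.0818, -0.0496 and 0.213, and those of different-numbered libraries at -0.273 to 0.257.

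Outside the fits that left out 1 library, 6 of the 40 genes changed sign, mostly at values near 0. With RLE factors Ifi44 and Trim30a had 0.0016 and 0.0094, with upper-quartile factors and with a filter of 1 CPM Trim30a had 0.0040 and 0.0039, and with DESeq2 Ifi44 and Trim30a had 0.000185 and 0.0083. With limma-voom Xaf1 and Iigp1 had -0.040 and -0.11, and with quality weights Ifit1, Ifi44 and Gbp2 had 0.039, 0.19 and 0.030. Xaf1 and Iigp1 had -0.023 and -0.070 on log2(FPKM + 1), with and without a filter, and -0.032 and -0.096 on log2(FPKM + 0.1). Leaving out 1 library turned the sign of 23 genes, here with their lowest and highest log2 fold change: Ddx58 (-0.26 to 0.038), Dhx58 (-0.091 to 0.46), Dtx3l (-0.077 to 0.24), Gbp2 (-0.21 to 0.12), Ifi44 (-0.19 to 0.19), Ifih1 (-0.063 to 0.22), Ifit1 (-0.55 to 0.15), Ifit2 (-0.30 to 0.37), Ifit3 (-0.62 to 0.12), Igtp (-0.41 to 0.056), Iigp1 (-0.61 to 0.38), Irgm1 (-0.30 to 0.031), Isg15 (-0.47 to 0.049), Mx1 (-0.73 to 0.79), Mx2 (-0.0058 to 1.03), Oas2 (-0.63 to 0.064), Oas3 (-0.42 to 0.19), Parp9 (-0.026 to 0.39), Rsad2 (-0.16 to 0.61), Tap1 (-0.0074 to 0.15), Trim30a (-0.34 to 0.19), Xaf1 (-0.23 to 0.17), Zbp1 (-0.53 to 0.067). The cause was not tested. Each of the 40 had at least 961 counts over the 6 libraries and at least 73 in any 1 of them.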
